A study of Homo sapiens with 34 samples.

Results

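The regions described here are 702 SMARCA1 loci that were listed in cells depleted of Orc6 and in no control cells. They were chosen from the 14791 SMARCA1 regions of the first non-treated siOrc6 library, by 2 criteria: a region of the second non-treated siOrc6 library overlapped them by at least 1 bp, and no region of the 4 control SMARCA1 libraries did. Another 9025 regions of the same list met the first criterion but did overlap a control region, and these shared regions serve as the comparison throughout. The remaining regions were absent from the second siOrc6 library, 957 of them without and 4107 with a control region. Since the SMARCA1 lists of non-treated siOrc6 cells and of control cells set the membership, the presence of the 702 loci in the former and absence from the latter are given as description only.

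SMARCA1, also called SNF2L, is an ATPase of the ISWI family, whose remodellers slide and space nucleosomes. Orc6 belongs to the origin recognition complex, as its smallest subunit, and this complex marks the sites where DNA replication can start. OGG1 is the glycosylase that recognises and cuts out 8-oxoguanine, a common oxidised base, as the first step of base excision repair.

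The assay was CUT&RUN: a nuclease tethered to an antibody frees the DNA beside the antibody's target. U2OS cells, an established human osteosarcoma line, received an siRNA named siGl3 (the control) or one against Orc6 (siOrc6) for 72 h, were synchronised by a double thymidine block with a release of 3 h into early S phase, and were then non-treated (NT) or exposed to 5 mM H2O2 for 30 min. Each reaction used 500000 cells fixed in 0.1% formaldehyde for 1 min, and was read as pairs of 150 bases. Groups of n = 2 were available for SMARCA1 and OGG1 under both siRNAs and both treatments, and for Orc6 in siGl3 cells under both treatments, giving 20 libraries of the 34 samples. The other 14 samples were not analysed here. All groups share the cell line, the block and the siRNA transfection, so each control carries an siRNA too. The lists hold no reads and no expression values, so depth is unknown, and neither the knockdown nor the cell type could be checked. Replicate numbers are labelled as batches, but nothing states that they were separate cultures, so p-values measure the spread between these samples, which may be technical.

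Features of the libraries touch the results below. The 4 SMARCA1 lists of siOrc6 cells carry a mark of a later submission that no SMARCA1 list of siGl3 cells carries, so an effect of the siRNA cannot be told apart from that of the submission. The control lists also differed in extent. They held 6992 and 11036 regions over 1.05 and 1.44% of the genome span without treatment, and 69927 and 47072 regions over 3.31 and 2.58% after H2O2, against 4.18 and 2.37% for the lists of non-treated siOrc6 cells. Finally, 1 OGG1 library stood apart: siOrc6 NT replicate 2 listed 45.9% of the 702 loci, whereas each of the other 7 OGG1 libraries listed between 87.5 and 98.6%. The comparisons of OGG1 between groups that rest on it are given with and without it, and its part in them was not tested beyond that.

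Several of the loci with the strongest SMARCA1 signal lay at genes of varied function, and 4 of their promoters are shown. The SMARCA1 maximum fell within 321 bp of each start site. The promoter of LOC124900214, at another named locus, is not printed. The percentile of a region's total signal among all regions of its own list was used to rank it, as the normalisation of the signal is not known. Each sequence runs 5′ to 3′ along the gene, from 250 bases before to 50 bases after the RefSeq start site (GRCh38.p14), and capitals mark GGGCGG or its reverse complement CCGCCC, the GC box bound by Sp1-type factors. COX19 (chr7:975500-975799, minus strand) encodes a factor for assembly of cytochrome c oxidase, and its locus had regions in all 8 OGG1 and all 4 Orc6 libraries. SLBP (chr4:1712270-1712569, minus strand) encodes the protein that binds the stem-loop of histone mRNAs, and its locus was likewise listed in all 12. GPS1 (chr17:82050682-82050981, plus strand) encodes a subunit of the COP9 signalosome, and its locus had 7 OGG1 libraries but 1 Orc6 library. USP5 (chr12:6851900-6852199, plus strand) encodes a deubiquitinase that takes apart free ubiquitin chains, and its locus had 7 OGG1 libraries and no Orc6 library.
COX19: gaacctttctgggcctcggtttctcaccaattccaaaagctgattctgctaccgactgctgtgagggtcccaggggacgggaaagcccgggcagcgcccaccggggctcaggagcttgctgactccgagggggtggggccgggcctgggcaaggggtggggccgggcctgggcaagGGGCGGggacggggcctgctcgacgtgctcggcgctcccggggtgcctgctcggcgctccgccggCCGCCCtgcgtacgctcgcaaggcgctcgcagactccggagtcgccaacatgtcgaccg
SLBP: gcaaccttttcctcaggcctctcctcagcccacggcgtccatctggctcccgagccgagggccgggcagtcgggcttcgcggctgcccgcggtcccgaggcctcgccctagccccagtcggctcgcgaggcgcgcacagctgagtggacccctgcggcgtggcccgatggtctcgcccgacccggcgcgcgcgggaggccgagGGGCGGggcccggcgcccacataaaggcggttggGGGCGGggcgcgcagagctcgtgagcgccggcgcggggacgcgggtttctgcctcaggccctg
GPS1: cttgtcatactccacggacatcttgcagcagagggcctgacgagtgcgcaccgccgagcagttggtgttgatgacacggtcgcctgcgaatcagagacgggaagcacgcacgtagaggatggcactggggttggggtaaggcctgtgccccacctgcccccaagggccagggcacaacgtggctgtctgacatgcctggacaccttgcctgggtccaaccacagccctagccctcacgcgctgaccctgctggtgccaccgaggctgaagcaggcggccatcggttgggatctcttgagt
USP5: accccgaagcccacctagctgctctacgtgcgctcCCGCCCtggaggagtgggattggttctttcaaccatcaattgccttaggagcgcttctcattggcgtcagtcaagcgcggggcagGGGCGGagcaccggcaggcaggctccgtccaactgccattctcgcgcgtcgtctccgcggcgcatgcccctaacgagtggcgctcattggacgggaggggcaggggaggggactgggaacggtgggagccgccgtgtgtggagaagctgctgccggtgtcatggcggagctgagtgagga
The SMARCA1 maximum of siOrc6 NT replicate 1 lay 321 bp from the COX19 start, 137 bp from that of SLBP, 108 bp from that of GPS1 and 313 bp from that of USP5. GC content of the 4 windows was 71.3, 76.7, 63.3 and 65.7% in that order. A GC box stood 2 times each in the COX19, SLBP and USP5 windows and 0 times in that of GPS1, so it was present at both loci with all Orc6 libraries and at the locus with none.

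Promoters inside the loci were rich in GC, with the GC box at a share near that in shared regions. The NF-Y, TEAD, ETS-type, AP-1 and antioxidant response motifs had lower shares than in shared regions. The ETS-type motif had a higher share than in all promoters. These shares are a description with no test. Of the RefSeq promoter windows of 300 bases, 619 lay wholly inside the loci, 9738 inside shared regions, and 34789 made up the full set. Median GC content was 69.3, 66.3 and 58.7% in the 3 sets, with a median of 29, 27 and 14 CG dinucleotides and of 18, 16 and 13 positions starting a run of GGG or CCC. GGGCGG, the GC box, was found on either strand in 71.1% of promoters in the loci, in 69.9% of those in shared regions and in 44.9% of all. CCAAT, the box bound by NF-Y, was found in 26.7, 33.6 and 34.6%. GGAATG, the core of the TEAD motif, was found in 7.75, 11.7 and 14.1%. TTCCGG, an ETS-type motif, was found in 20.8, 25.9 and 17.2%. CACGTG, the E-box of MYC and USF factors, was found in 10.7, 9.36 and 7.24%. TATAAA was found in 6.14, 5.18 and 11.6%, the AP-1 motif TGANTCA in 4.20, 5.43 and 7.69%, and TGACNNNGC, the core of the antioxidant response element, in 12.6, 15.3 and 13.4%. All motifs were searched on both strands, and none was counted as a bound site. The promoter table used here held no gene of chromosome 8.

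The 702 loci were narrower and lower in SMARCA1 signal than the shared regions of the same list. Both are description only. A wider region more readily touches a control region and is then left out, and the signal is that of the lists that set the membership. Their median width was 5666.5 bp, with a range of 1021 to 33080 bp, against 6998 bp for shared regions. Their median percentile of total signal was 38.6 in the replicate 1 list and 35.6 in the replicate 2 list, against 66.5 and 55.5 for shared regions. The signal maxima of both siOrc6 replicates lay a median of 288.5 bp apart within the loci. Members just inside the rule included a region in GNPTG, a gene of lysosomal enzyme targeting, which shared 43 bp with replicate 2, and one at SSRP1, a subunit of the histone chaperone FACT, whose nearest control region was 4 bp away. Just outside, the region at chr12:113589512-113592330 was left out because a control region covered 16 bp of it, and 4 regions were left out over fewer than 100 shared bases. The median distance from a locus to the nearest control region was 9292 bp. It was under 1 kb for 74 loci, over 10 kb for 333 and over 100 kb for 35. The widest locus, at chr16:1414800-1447879, spanned CLCN7, a lysosomal chloride transporter, with UQCC4, PERCC1 and CCDC154.

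The number of loci rests on the H2O2 control lists in particular. With only the non-treated control lists as the exclusion, 4049 regions would qualify. Without siGl3 H2O2 replicate 1 the number was 1145, and without replicate 2 it was 1569. Counting a control overlap only from 50% of the region gave 5652. The 702 loci are therefore those with no SMARCA1 call in control cells under either treatment, and a call is a threshold crossed in 1 list rather than a measured amount.

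The authors' deposited tables for SMARCA1 hold windows under the names up and ns. In the authors' deposited table for NT, a window named up lay under 537 of the loci (76.5%), against 45.8% of all 14791 regions and 69.1% of shared regions. A window named ns for NT in the authors' deposited table lay under 152 loci (21.7%), against 26.3% of all regions. For H2O2, windows named up in the authors' deposited table lay under 526 loci (74.9%; 48.4% of all regions) and windows named ns under 234 (33.3%; 57.9%). No source used here says which samples those tables compare, and the same libraries may underlie them, so these counts are descriptive.

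The loci were found again in the SMARCA1 lists of H2O2-treated siOrc6 cells, which the rule did not use. Replicate 1 listed 664 of the 702 loci (94.6%) and replicate 2 listed 686 (97.7%), a mean of 96.2 ± 2.22% (SD, n = 2). Shared regions were listed at 95.7 and 98.3%, so both classes were recovered at similar rates. Both H2O2 libraries listed 662 loci (94.3%), against 84.7% of all regions of the starting list. The regions over the loci ranked high there, at a median percentile of 80.2 and 87.8 (84.3 and 91.1 for shared regions). These 2 lists covered 2.96 and 5.22% of the genome span. The recovery depended on the overlap asked for: 66.7% of the loci were covered over at least 50% of their width, and 75.9% at their midpoint.

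OGG1 was already present over most of the loci in control cells, where SMARCA1 was not called. In non-treated siGl3 cells OGG1 regions overlapped 88.7% of the loci in replicate 1 and 87.5% in replicate 2, close to the 88.8 and 90.5% of shared regions. Both replicates listed 576 loci (82.1%), against 73.7% of all regions. The midpoint of a locus was covered 15.4 and 10.4 times as often as the share of the genome span those lists covered. The OGG1 signal over the loci ranked near that over shared regions: the median percentile was 65.7 and 73.6 in the 2 replicates, against 70.6 and 73.5. The OGG1 maximum lay a median of 369 and 399 bp from the SMARCA1 maximum of siOrc6 cells, against 257 and 257.5 bp in shared regions.

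Neither H2O2 nor siOrc6 could give a difference in the OGG1 share of the loci that passed the test, as the smallest possible exact permutation p was 0.0556. After H2O2, siGl3 libraries listed 98.0 and 98.6% of the loci and siOrc6 libraries 97.3 and 98.6%. Both replicates listed 687 loci (97.9%; 99.4% of all regions) under siGl3 and 681 (97.0%; 99.2% of all regions) under siOrc6. In non-treated siOrc6 cells the values were 96.4% in replicate 1 and 45.9% in replicate 2, so the replicates of this group lay on both sides of the siGl3 values, and both listed 313 loci (44.6%; 70.5% of all regions). H2O2 libraries averaged 98.1% and NT libraries 79.6%, a difference in means of 18.5 points (exact two-sided permutation p = 0.0556, the smallest the design allows; 0.278 after Benjamini-Hochberg adjustment over 10 tests). Each H2O2 library lay above each NT library, but the closest pair was 97.3 and 96.4%, both from siOrc6 cells, and without siOrc6 NT replicate 2 the difference was 5.84 points (exact permutation p = 0.111). H2O2 lists were far more extensive, with 18.4 to 27.2% of the span covered against 5.47 to 9.50%. The midpoint ratio of the loci was lower by 1.30 on the log2 scale with H2O2 (exact permutation p = 0.111, adjusted 0.297). No list can cover more than all loci, so lists this extensive cap that ratio below its NT mean of 3.25. List extent thus fixed the direction of this change, and its p decides nothing about the loci. When all OGG1 lists were held to their 17813 strongest regions, the share fell by 14.1 points with H2O2 (exact permutation p = 0.5), so the direction depended on list length. Libraries of siOrc6 cells averaged 84.5% and those of siGl3 cells 93.2% (difference -8.65 points, exact permutation p = 0.833; adjusted 0.889). Without siOrc6 NT replicate 2 the difference was 3.99 points in the other direction (exact permutation p = 0.278). The H2O2 difference was 26.8 points under siOrc6 and 10.2 points under siGl3, and the interaction of 16.6 points gave an exact permutation p of 0.889. The value for siOrc6 included NT replicate 2, without which the interaction turned to -8.69 points (exact permutation p = 0.278). For both interaction values the H2O2 labels were permuted within each siRNA. That assumes no H2O2 difference under either siRNA, so neither p tests the interaction alone.

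Region by region, OGG1 was listed in all H2O2 and no NT libraries at few of the loci and few of the shared regions. Of the 14791 regions of the list, 155 (1.05%) had OGG1 in all 4 H2O2 libraries and in no NT library, each with an adjusted p of 0.0428 by Fisher's exact test over the 232 regions listed in exactly 4 of 8 libraries. Among them were 2 of the 702 loci (0.285%) and 37 of the 9025 shared regions (0.410%), so the low share was not particular to the loci. Without siOrc6 NT replicate 2 the count was 1249 regions, with 7 of the loci, and without siOrc6 NT replicate 1 it was 284, with 17 of the loci. The adjusted call was lost under several other settings. With all OGG1 lists held to equal length 27 regions showed the pattern, none of them among the loci, and with at least 50% of a region covered 193 did, and in both cases 0 passed. With the treatment labels permuted within replicate number, no region could pass, as the smallest possible exact permutation p was 0.0556 (adjusted 0.0832). That setting therefore cannot decide whether the call holds. Without any 1 of the 4 H2O2 libraries no region passed the adjusted threshold of Fisher's exact test. No region had OGG1 in all 4 siOrc6 and no siGl3 library, or the reverse, and none had an unadjusted p under 0.05 in that comparison by Fisher's exact test.

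**Figure D1:**
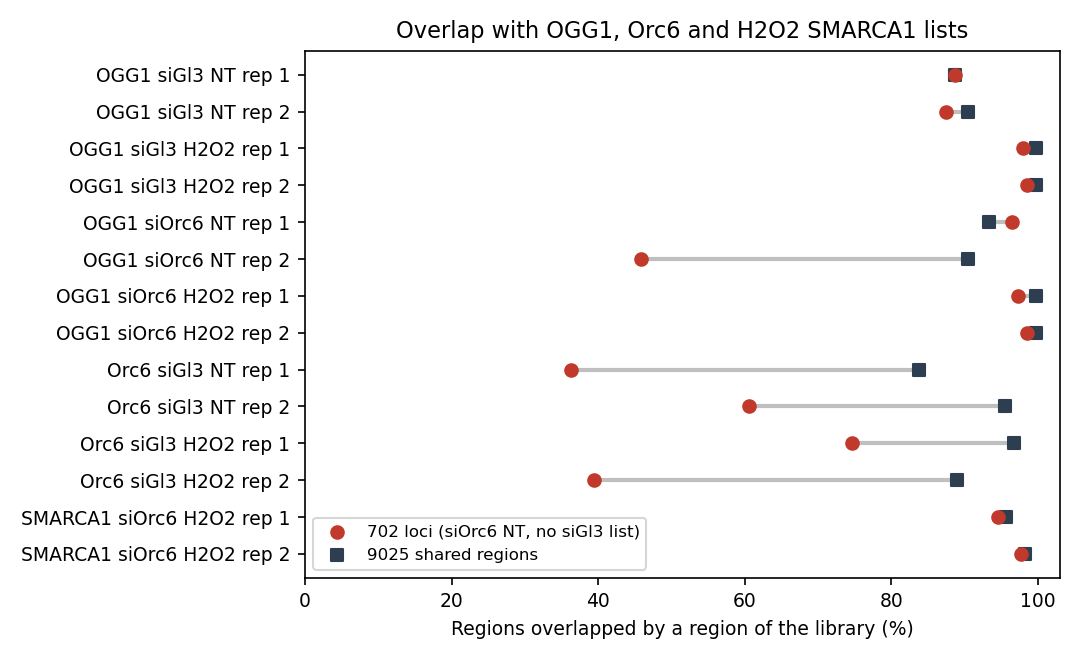
Percentage of the 702 loci (red circles) and of the 9025 shared regions (dark squares) overlapped by at least 1 bp in each of the 14 libraries that the rule did not use. The circles lie within 4 points of the squares in all libraries except OGG1 siOrc6 NT replicate 2 and the 4 Orc6 libraries, where they lie 22.2 to 49.6 points lower.

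Orc6 itself, profiled in siGl3 cells, was called at far fewer of the loci than of the shared regions. In non-treated cells Orc6 regions overlapped 36.3% of the loci in replicate 1 and 60.5% in replicate 2, against 83.8 and 95.5% of shared regions. After H2O2 they overlapped 74.6 and 39.5% of the loci, against 96.8 and 89.0%. The loci were lower in 4 of 4 libraries and the groups of values did not overlap, with means of 52.7% for the loci and 91.3% for shared regions. The paired difference of -38.5 points gave an exact two-sided sign-flip permutation p of 0.125, the smallest that 4 libraries allow (0.297 adjusted). Both NT replicates listed Orc6 at 206 loci (29.3%), against 70% of all regions and 82.2% of shared regions, and both H2O2 replicates at 254 (36.2%), against 78.7 and 88.0%. Where Orc6 was called, its signal ranked lower than at shared regions: the median percentile in non-treated cells was 41.7 and 44.8, against 73.1 and 84.5. H2O2 made no difference that exceeded the replicate spread, at 48.4 ± 17.1% without and 57.1 ± 24.9% with it (SD, n = 2 each; exact permutation p = 0.667, smallest possible 0.333). That difference changed sign without NT replicate 1 (-3.49 points) and without H2O2 replicate 1 (-8.97 points).

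The gap between loci and shared regions was larger for Orc6 than for OGG1. Within the siGl3 libraries, the mean of loci minus shared regions was -38.5 points for Orc6 and -1.49 points for OGG1. The difference between them was -37.0 points, and each Orc6 library lay below each OGG1 library (exact permutation p = 0.0556, the smallest the design allows, 0.278 adjusted). The test was added after the values were seen. The siGl3 H2O2 OGG1 lists held 99.7 and 99.6% of all regions of the starting list, so they could show little gap. Without treatment the OGG1 gaps were -0.007 and -3.00 points and the Orc6 gaps -47.4 and -35.0 points. With lists held to equal length, the Orc6 gap was -52.2 points and the difference between antibodies -38.2 points. Over all 8 OGG1 libraries the loci were lower by 6.41 points (exact sign-flip permutation p = 0.148; adjusted 0.297). Without siOrc6 NT replicate 2 the difference was -0.95 points (exact sign-flip permutation p = 0.297), and with all lists held to equal length it was -20.6 points (exact sign-flip permutation p = 0.0234, unadjusted). The comparison of Orc6 with OGG1 used siGl3 libraries only, so the siRNA was the same for both antibodies. The starting list was made in siOrc6 cells, and the Orc6 and control SMARCA1 lists in siGl3 cells. No Orc6 library of siOrc6 cells was available, so the Orc6 gap under that siRNA is unknown.

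The lower Orc6 share of the loci was seen at each level of SMARCA1 signal and width examined. Among regions in the lowest 25% of SMARCA1 total signal, Orc6 was listed at 44.7% of the loci and 78.4% of shared regions on average over the 4 libraries. Among those above the 75th percentile it was listed at 67.3% of 52 loci and 96.4% of shared regions. In the bands between, the values were 55.2 against 86.9% and 54.4 against 91.9%. OGG1 stayed between 85.7 and 90.7% of the loci in all 4 bands, against 88.9 to 97.4% of shared regions. In 4 bands of width the Orc6 share of the loci was between 49.8 and 55.8%, and that of shared regions between 88.1 and 95.1%. At gene ends, the Orc6 share was 55.7% of loci against 91.2% of shared regions, and away from them 47.8 against 91.4%.

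**Figure D2:**
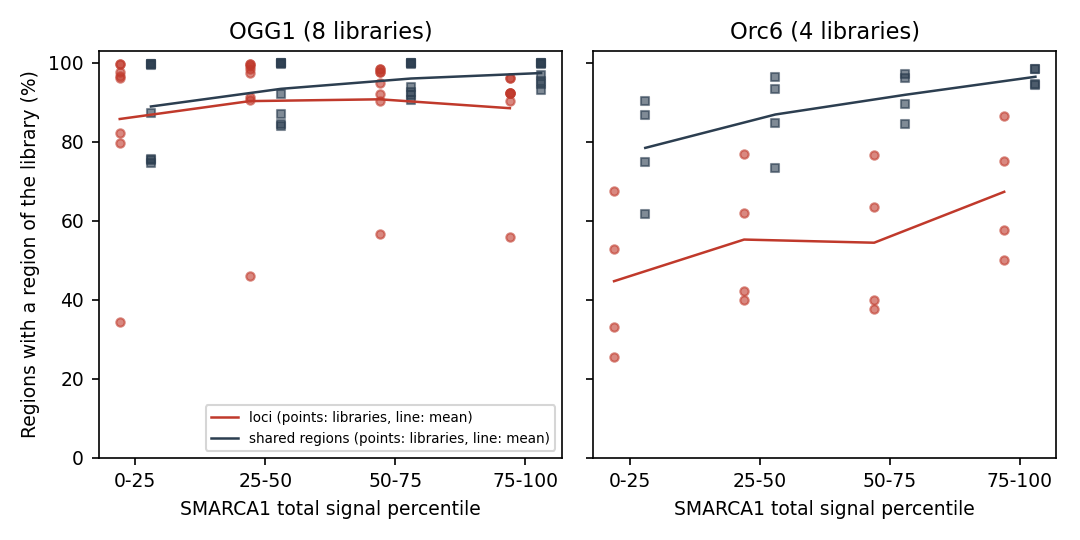
Share of loci (red circles) and shared regions (dark squares) with an OGG1 region (left) or an Orc6 region (right), by percentile of SMARCA1 total signal in the siOrc6 NT replicate 1 list. Points are libraries and lines their means; the Orc6 means of the loci run from 44.7 to 67.3% and lie below those of shared regions in each band, while the lowest OGG1 point of the loci in each band is siOrc6 NT replicate 2.

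For Orc6, regions of the starting list that failed the replicate criterion divided in the same way. Of the 957 regions seen in replicate 1 only and without a control SMARCA1 region, Orc6 was listed at 21.3 and 44.1% without treatment and at 54.2 and 33.2% after H2O2. Of the 4107 such regions with a control SMARCA1 region, it was listed at 65.8 and 88.6%, and at 89.2 and 82.2%. The OGG1 library that stood apart, siOrc6 NT replicate 2, listed 40.8% of the former and 84.7% of the latter. Its counterpart, siOrc6 NT replicate 1, listed 82.4 and 64.8%. The non-treated siGl3 OGG1 libraries also listed more of the regions without a control region, 67.9 and 81.1%, than of those with one, 55.1 and 67.5%. After H2O2 the OGG1 libraries listed between 98.3 and 99.9% of both.

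Most of the loci had OGG1 in 7 or 8 of the 8 libraries, while Orc6 counts ran over the whole scale. OGG1 was in all 8 at 275 loci (39.2%; 60.7% of all regions) and in 7 at 325, and for 291 of those 325 the missing library was siOrc6 NT replicate 2. Orc6 was in none of its 4 libraries at 93 loci (13.2%; 3.72% of all regions and 0.886% of shared regions), in 1 at 159, in 2 at 154, in 3 at 170 and in all 4 at 126 (17.9%; 64.7% of all and 77.6% of shared regions). OGG1 in both non-treated siGl3 libraries with no Orc6 library was seen at 75 loci (10.7%; 2.59% of all regions). All 12 libraries listed 70 loci (9.97%; 45.7% of all regions), the most common combination. The next was OGG1 in all libraries but siOrc6 NT replicate 2 with no Orc6, at 57 loci. Orc6 in both H2O2 libraries and no NT library was seen at 30 loci (4.27%; 1.71% of all regions), and the reverse at 8 (1.14%; 0.683%).

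**Figure D3:**
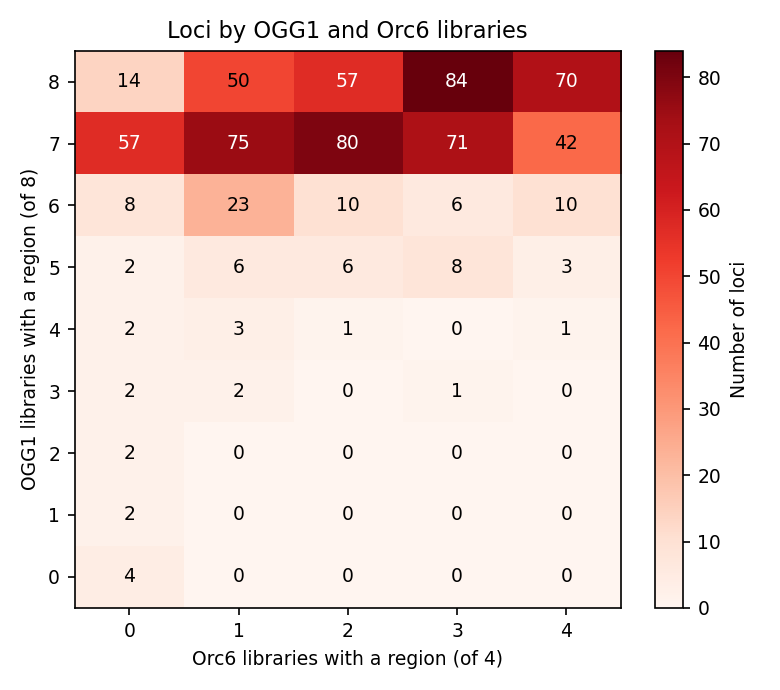
Number of loci by the number of OGG1 libraries (vertical axis, of 8) and Orc6 libraries (horizontal axis, of 4) with a region over them; darker cells hold more loci. Most loci lie in the top pair of rows, spread over all Orc6 counts, with 70 in all 12 libraries and 4 in none.

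The loci with more Orc6 libraries also more often lay at genes and in the OGG1 library that stood apart. The share within 1 kb of a protein-coding gene's end was 52.7% with no Orc6 library, 61.3% with 1 or 2, 64.7% with 3 and 72.2% with 4. The share in OGG1 siOrc6 NT replicate 2 ran 16.1, 39.0, 60.0 and 65.9% over the same classes, whereas the mean share over the other 7 OGG1 libraries was 88.2, 95.8, 96.3 and 96.4%. Median mean percentiles of SMARCA1 signal were 28.6, 35.1, 39.5 and 42.3. Median widths had no such order, at 5873, 5756, 5480.5 and 5628.5 bp.

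The 10 loci of highest SMARCA1 percentile showed this range of combinations. A locus between genes at chr19:18285193-18295534 ranked first, at a mean percentile of 91.8, with all OGG1 and all Orc6 libraries. The second lay inside BCOR (chrX:40103746-40111721, 91.5), the gene of a BCL6 corepressor, with 7 OGG1 and 2 Orc6 libraries. The third held COX19, CYP2W1, a cytochrome P450 gene, and the end of CHLSN (chr7:970541-983835, 91.2). Its OGG1 percentiles were 97.4 and 96.0 in non-treated siGl3 cells, 97.1 and 99.8 after H2O2, 98.8 and 60.0 in non-treated siOrc6 cells and 94.6 and 94.7 after H2O2. The lowest of these, again, was siOrc6 NT replicate 2. Its Orc6 percentiles were 76.8 and 49.7 without and 36.3 and 4.6 with H2O2, all below the other 7 OGG1 values.

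At USP5 and CDCA3 (chr12:6849603-6858126, mean percentile 88.6), the latter a gene of mitotic entry, OGG1 ranked at 98.8 and 98.6 in non-treated siGl3 cells and at 98.2 in H2O2 replicate 1. In siOrc6 cells it ranked at 99.5 in NT replicate 1, was absent from NT replicate 2, and ranked at 99.9 in H2O2 replicate 1. No Orc6 library listed this locus, although it was among the strongest OGG1 regions of each list that held it. The locus of GPS1 with RFNG, a glycosyltransferase that modifies Notch, and DUS1L, of the tRNA dihydrouridine synthase family (chr17:82046713-82065757, 88.8), had an Orc6 region in H2O2 replicate 1 alone, at a percentile of 0.6. The GPSM1, CARD9 and DNLZ locus (chr9:136355469-136372077, 88.9) had OGG1 in 7 and Orc6 in all 4 libraries. CARD9 is an adaptor of innate immune signalling. The SLBP locus (chr4:1708686-1723624, 87.4) also held TACC3, a spindle protein gene, and TMEM129, and its OGG1 percentile was 28.2 in siOrc6 NT replicate 2 and between 89.2 and 96.9 in the other 7. Another locus between genes, at chr1:31943478-31961782 (88.2), had all 12 libraries, and one at chr5:49641868-49647743 (87.0) had 2 OGG1 libraries and no Orc6 library.

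**Figure D4:**
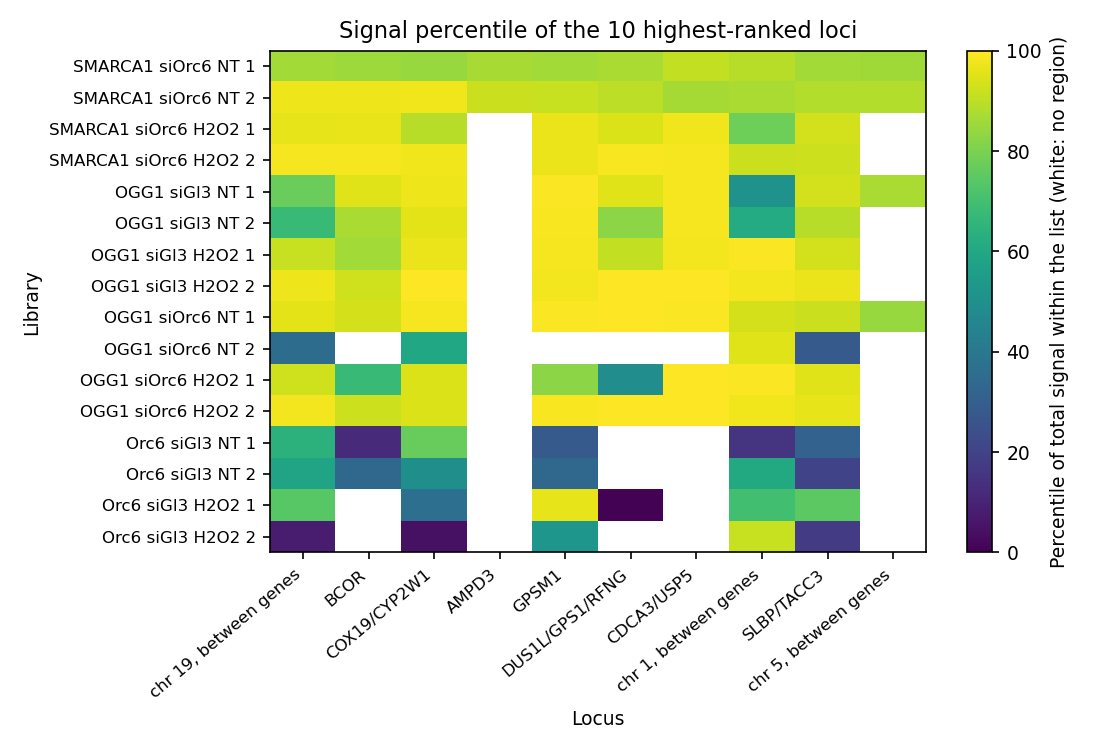
Percentile of total signal within each library's own list for the region over each of the 10 loci of highest SMARCA1 percentile (columns), across the 2 siOrc6 NT SMARCA1 libraries that chose them and the 14 other libraries (rows); white marks a library with no region there. OGG1 values are mostly above the 80th percentile, Orc6 values are often lower or white, with 96.2 in H2O2 replicate 1 at GPSM1 and 91.5 in H2O2 replicate 2 at the chromosome 1 locus as exceptions, and the AMPD3 locus is white in all 14.

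Other loci listed by all 12 libraries with high SMARCA1 percentiles lay at SBNO2 (mean percentile 86.4), at TRERF1 (86.3), inside GSE1 (85.2), at CD151, a tetraspanin gene, with CRACR2B (85.0), at RASGEF1A (84.3) and inside MAD1L1 (82.4), a gene of the spindle assembly checkpoint. Only 4 loci (0.570%; 0.0473% of all regions) had neither OGG1 nor Orc6 in any library. These were the locus at AMPD3 (chr11:10507886-10510336), an AMP deaminase gene, one inside AKAP6 (chr14:32484098-32485118), which anchors protein kinase A, one on X (chrX:126471581-126472866) and one on chromosome 8. All 4 were under 2.5 kb wide, at 2451, 1021, 1286 and 1910 bp, and their SMARCA1 percentiles averaged 89.3, 81.3, 67.3 and 66.7. The H2O2 siOrc6 SMARCA1 lists held a region at none of the 4, so each was seen in 2 of the 4 siOrc6 SMARCA1 libraries. A further set of loci with 7 or 8 OGG1 libraries and no Orc6 was chosen after the values were seen. After USP5, its highest-ranked loci at or in genes were those of ADGRA2 (mean percentile 70.9), DAAM2 (63.5), MXRA8 (61.0), MISP3 (60.3), UBALD1 (57.0) and SUGP2 with ARMC6 (56.5). Loci outside protein-coding genes ranked among them, such as chr12:34288795-34293993 (70.0) and chr22:48891099-48900554 (62.0).

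By position, the loci lay at gene ends of either kind about as often as shared regions did, and at gene starts somewhat less often. Of the 702 loci, 442 (63.0%, exact 95% interval 59.3 to 66.5%, counting error only) overlapped a window of 1 kb around either end of a protein-coding gene, against 63.2% of shared and 51.5% of all regions. The SMARCA1 maximum lay within 1 kb of a gene end at 331 loci (47.2%), inside a gene and away from its ends at 212 (30.2%) and outside protein-coding genes at 159 (22.6%). For shared regions these shares were 51.6, 24.2 and 24.3%. Outside chromosome 8, a window of 1 kb around a gene start was overlapped by 51.7% of 689 loci, against 56.7% of shared and 44.8% of all regions. The SMARCA1 maximum lay within 1 kb of a start at 42.7, 49.8 and 38.9% of these. A window of 5 kb raised the share at gene ends to 69.4% of the loci and 56.6% of all regions, and counting all annotated genes raised it to 75.2 and 65.3%.

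The loci were unevenly spread over the chromosomes. Chromosome X held 28 of its 138 list regions as loci (20.3%), chromosome 13 held 14 (9.66%), chromosome 19 held 56 (8.54%) and chromosome 9 held 47 (8.41%), whereas chromosome 8 held 13 (1.63%), chromosome 10 held 18 (2.24%) and chromosome 3 held 21 (2.43%). The control SMARCA1 lists placed 0.445% of their regions on X and 1.76% on chromosome 19, against 0.933 and 4.44% of the siOrc6 starting list. As the control lists chose the loci, these shares are not independent of the rule. Neighbouring X loci lay inside BCOR, and others lay at KDM6A, a histone H3 lysine demethylase gene, at USP11, a deubiquitinase gene, and at MAGEA4, a cancer-testis gene. Of the 28 X loci, 19 lay at a gene end and 9 had no Orc6 library. Orc6 was listed at 21.4 and 42.9% of X loci without treatment and at 46.4 and 17.9% after H2O2, against 36.9 and 61.3% and 75.8 and 40.4% of the other loci. On the autosomes alone the mean Orc6 share was 53.6 ± 18.3% for loci and 91.4 ± 6.01% for shared regions (SD, n = 4).

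**Figure D5:**
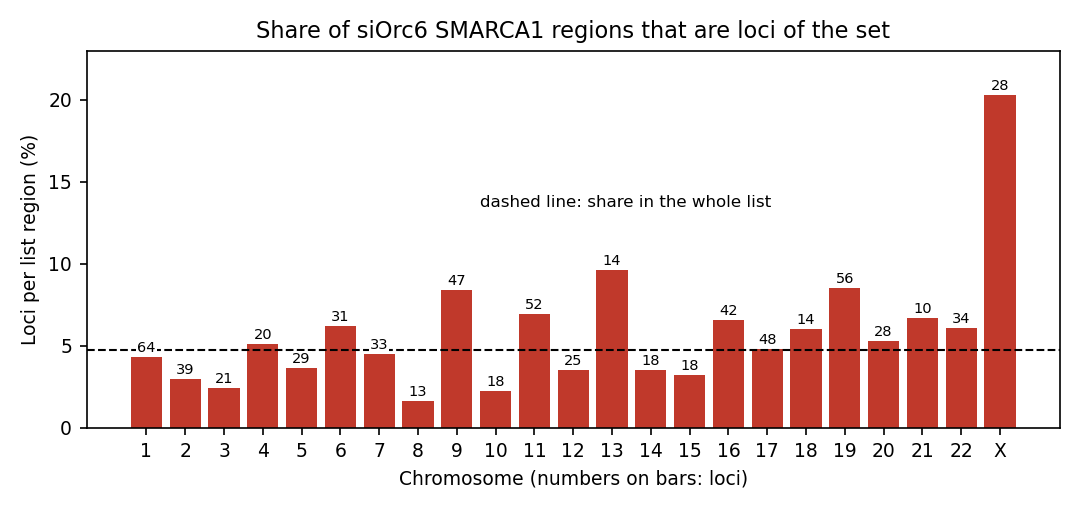
Percentage of the siOrc6 NT replicate 1 SMARCA1 regions on each chromosome that are among the 702 loci, with the number of loci above each bar and the share in the whole list as a dashed line. Chromosome X stands highest at 20.3% and chromosome 8 lowest at 1.63%.

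The loci also lay more often near chromosome ends, again with membership set by the control lists. Within 5 Mb of an end lay 230 loci (32.8%), against 11.4% of shared and 11.9% of all regions. Of the regions absent from the second siOrc6 library, 20.3% of those without a control region lay there, and 7.45% of those with one. A higher share than in all regions was thus not particular to the loci. The fullest windows of 1 Mb were chr1:1000001-2000000 with 9 loci of 15 list regions, chr11:1-1000000 with 9 of 14 and chr22:50000001-51000000 with 8 of 30. On chromosome 1 the window ran from C1orf159 over TNFRSF18 and TNFRSF4, both genes of T cell co-stimulatory receptors, and MXRA8 to ATAD3A and ATAD3B. Of its 9 loci, 6 had 0 or 1 Orc6 library and 7 had at least 7 OGG1 libraries. On chromosome 11 the window held IFITM3, an interferon-induced antiviral gene, PKP3, DEAF1, PNPLA2, a triglyceride lipase gene, and CD151. There 7 of 9 loci had 0 or 1 Orc6 library, 1 had all 4, and 7 had at least 7 OGG1 libraries. On chromosome 22 the window held MAPK11, MAPK12, PLXNB2 and SHANK3, a postsynaptic scaffold gene, and 8 of 8 loci had at least 7 OGG1 libraries. Of these 8 loci, 3 had 0 or 1 Orc6 library and 2 had all 4. Loci within 5 Mb of an end had a mean Orc6 share of 44.2 ± 21.2% and shared regions there 84.8 ± 8.51% (SD, n = 4), while farther away the values were 56.9 ± 17.1 and 92.1 ± 5.81%. The OGG1 means were 88.9 and 95.8% near the ends and 88.9 and 95.2% farther away. In all, 470 windows of 1 Mb held the loci, 338 of them with 1 locus, and 132 windows with more held 364 loci.

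A locus lay within 1 kb of an end of 605 of 19974 protein-coding genes (3.03%), and a shared region at 7415 (37.1%). Among the gene lists, NRF2 antioxidant targets had the highest share, 4 of 31 (12.9%), with shared regions at 19 of 31. These were GPX4, which reduces lipid hydroperoxides, SOD2, the mitochondrial superoxide dismutase, TXN, the gene of thioredoxin, and SQSTM1, the autophagy receptor p62. The GPX4 and SOD2 loci had all 4 Orc6 libraries, with 8 and 7 OGG1 libraries, the SQSTM1 locus had 3 and the TXN locus 1. At TXN the OGG1 percentiles were 22.5 and 16.3 in non-treated siGl3 cells and 77.4 and 82.4 after H2O2, and at SQSTM1 they were 92.1 and 70.3, and 88.1 and 87.6, so the ranks after H2O2 were the higher ones at TXN and overlapped those without it at SQSTM1. Double-strand break repair genes had 2 of 24, RNF8, a ubiquitin ligase at breaks, and PALB2, the partner of BRCA2. At RNF8 the OGG1 percentile was 45.8 and 44.8 without and 99.0 and 94.2 with H2O2 in siGl3 cells. Percentiles from lists of different lengths show no change in amount.

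Each of the other lists had 0 to 2 genes with such a locus. Base excision repair genes had 0 of 21 and genes of replication origins and forks 0 of 31, although shared regions lay at 16 genes of each list. Chromatin remodeller genes had 1 of 29, SMARCA4, the ATPase of SWI/SNF complexes, with 7 OGG1 libraries and 1 Orc6 library. Replication-dependent histone genes and immediate early genes had 0 of 31 and 0 of 22. Heat shock and unfolded protein genes had 2 of 24, CANX and HYOU1, which act in protein folding in the endoplasmic reticulum, and p53 targets 1 of 24, MDM2, the ubiquitin ligase of p53, at a mean percentile of 9.4. Cytosolic ribosomal protein genes had 1 of 41, RPL12, and glycolysis genes 1 of 23, PFKL, the liver phosphofructokinase.

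Lists of lineage genes gave few loci as well. Mesenchymal and bone genes had 2 of 26: COL6A2, a chain of collagen VI, at a mean percentile of 70.9 with 8 OGG1 and 3 Orc6 libraries, and PRRX1, a mesenchymal homeobox factor, at 31.2 with 7 and 2. Epithelial junction genes had 2 of 25, PKP3 and ITGB4. At ITGB4, a laminin-binding integrin chain, OGG1 ranked at 99.6 and 97.7 in non-treated siGl3 cells and between 98.8 and 99.9 in the other OGG1 libraries that listed it, although its SMARCA1 percentile averaged 17.7. Blood cell genes had 1 of 19, SPI1, a factor of myeloid cells, and germline genes 1 of 16, MAGEA4. Hepatocyte genes had 0 of 19 and neuron genes 0 of 18. With 0 to 4 genes in each list, no list was tested against the 3.03% over all genes.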

How the data were processed

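Region lists of 20 CUT&RUN libraries were used, grouped by sample titles. Per the submitters' processing notes, the tools were SEACR 1.1, DESeq2, DiffBind, Bowtie2, deepTools, SAMtools and bedtools, with build hg38 and no roles stated. Per the labels and file layout, the authors deposited for each region its total and maximum signal, and no source used here gives its normalisation or control, so signal only ranked regions within a list. The authors' deposited up and ns windows carry a score that was not used. Read depth is unknown. The members and lists were chosen with earlier results of these data known.

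Overlaps of at least 1 bp on chromosomes 1 to 22 and X were counted with Python 3.11.15, numpy 2.4.6, pandas 2.3.3, scipy 1.17.1 and matplotlib 3.10.9. The midpoint ratio divides the share of locus midpoints covered by the share of the 3.03 Gb span covered. Gene ends are windows reaching 1 kb to either side of a gene's first and last base in the GRCh38.p14 table of 19974 protein-coding genes. Library shares were compared by exact permutation within strata, or by sign flips of paired differences. Presence per region was compared by Fisher's exact test with Benjamini-Hochberg adjustment. The count of regions with a pattern was checked on simulated data in which that pattern was planted. The p-values of the region test were not assessed there. Batches in the labels carry the replicate numbers, which therefore pair the libraries, and the library differences and the region test were repeated with that block. No 2 lists were identical. The series' list of Orc6 regions was not used.

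Loci were named by rule: the 10 of highest mean percentile of total signal, the 10 such with all OGG1 and Orc6 libraries, those with none, the 5 widest, those at either side of the rule, the 3 fullest 1 Mb windows, and genes of 17 lists. Not every locus of the rule is printed.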

Additional observations from a re-analysis of the deposited data

How the results depend on the processing

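Of 157 planned and 16 added alternative values, 140 kept their direction, their side of the threshold and, for counts and untested values, about their size. Of the tests over libraries, only the OGG1 sign-flip test could reach 0.05, so for the others the side of the threshold was fixed by the design. Without the library that stood apart, OGG1 siOrc6 NT replicate 2, the siRNA difference of the OGG1 share of the loci turned to 3.99 points, the interaction to -8.69 points and the log2 midpoint ratio to 0.18. With lists held to equal length, the H2O2 difference of the OGG1 share reversed to -14.1 points, the gap between loci and shared regions for OGG1 widened to -20.6 points (exact sign-flip permutation p = 0.0234), the OGG1 H2O2 pattern had 27 regions in place of 155 and the siOrc6 pattern 16 in place of 0. The 155 regions of the OGG1 H2O2 pattern passed Fisher's exact test after adjustment, whereas 0 passed with lists of equal length, with 50% coverage (193 regions) or without any 1 of the 4 H2O2 libraries (158 to 162 regions). That OGG1 gap also passed 0.05 unadjusted at -6.54 points in the upper 50% of signal, -7.51 in narrow regions, -6.95 at gene ends and -7.77 without OGG1 siOrc6 NT replicate 1.

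Leaving out single libraries gave ranges of -21.3 to 3.99 points (siRNA difference, OGG1), 5.84 to 31.1 (H2O2 difference, OGG1), -8.69 to 41.9 (interaction), -7.77 to -0.95 (OGG1 gap), -44.0 to -34.9 (Orc6 gap), -43.9 to -30.2 (Orc6 minus OGG1 gap) and -8.97 to 26.2 (H2O2 difference, Orc6). The log2 midpoint ratios ranged from -0.72 to 0.18 (OGG1, siRNA), -1.75 to -0.85 (OGG1, H2O2) and -1.09 to 0.067 (Orc6, H2O2). For OGG1 with H2O2 the direction of this ratio was fixed by list extent. The H2O2 pattern of OGG1 held 158 to 1249 regions, the siOrc6 pattern 0 to 1, and the number of loci was 707 to 1569. The number of loci was 5652 with control overlap from 50%, 4049 with NT controls only and 1263 with 6 lists of equal length. Recovery in the siOrc6 H2O2 lists was 66.7% from 50% coverage and 75.9% at midpoints, and gene ends took 69.4% of the loci at 5 kb and 75.2% over all genes.

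With the replicate block, the paired differences kept their values (-8.65, 18.5, 16.6 and 8.62 points; -0.27, -1.30 and -0.51 on the log2 scale) with exact permutation p-values of 0.125 to 1. None of these 7 could pass the threshold with or without the block. Without it the smallest possible exact permutation p was 0.0556 for OGG1 and 0.333 for Orc6, and the block leaves fewer arrangements. The region test of OGG1 with that block, added after seeing the data, could pass none of the 155 regions. Its smallest possible exact permutation p was 0.0556 (adjusted 0.0832). The sign-flip tests pair values within a library and were not blocked further. Groups of 2, unknown read depth and a list format of calls without amounts limit every comparison.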
